A study of Homo sapiens with 48 samples.

Results

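The response to IDE196 was followed over time in 92-1, an established human uveal melanoma cell line labelled wild type. IDE196 (darovasertib) is an inhibitor of protein kinase C (PKC). DMSO, the drug's solvent, was the negative control. Cells were collected 4 h and 24 h after treatment began, which gave 4 groups of 3 samples: DMSO at 4 h, IDE196 at 4 h, DMSO at 24 h and IDE196 at 24 h. These 12 samples are part of a series of 48, whose other samples are 92-1, MEL202 and MP41 cells given FHT-1015, an inhibitor of the chromatin remodelling ATPases SMARCA4 and SMARCA2, or its own DMSO control. The labels number the DMSO samples 4, 5 and 6 and the IDE196 samples 1, 2 and 3, call them biological replicates, and state no dose. They do not say that replicates were separate cultures, so p-values measure the spread between these samples, which may be partly technical, and all of them come from 1 cell line.

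The question addressed here was how the effect of PKC inhibition at 24 h differed from its effect at 4 h. The quantity compared was the log2 fold change of IDE196 over DMSO at 24 h minus that at 4 h, called the difference below. The 4 h and 24 h fold changes share no sample. Of 58870 genes in the files, 15437 had enough reads to be tested, and each was placed in a time class by its adjusted p-values, with 0.05 as the threshold. A gene was early only if it was called at 4 h, not at 24 h, and its difference was called. It was late only if it was called at 24 h, not at 4 h, and its difference was called. A gene called at both times was sustained if the signs matched and reversing if they did not. Sustained genes were growing or shrinking where the difference was called, and steady where it was not, which does not show that the 2 effects were equal.

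Most uveal melanomas carry activating mutations of the G protein alpha subunits GNAQ or GNA11, and 92-1 is a GNAQ mutant line. The active G protein stimulates phospholipase C beta, which produces diacylglycerol. Diacylglycerol activates PKC, and PKC in turn acts through the exchange factor RASGRP3 on RAS and the MAP kinase ERK. ERK induces immediate early genes such as EGR1 and FOS within minutes, then feedback inhibitors such as DUSP6 and SPRY4, and it raises cyclin D1, which through CDK4 and CDK6 inactivates RB and frees the E2F factors that switch on genes of DNA replication. The cells of origin are melanocytes, whose identity factors include MITF and SOX10.

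Between 17838297 and 25466193 reads fell in genes in each of the 12 libraries, and 21851 to 23253 genes had a read. On the first 3 principal components, which held 57.7%, 9.7% and 6.1% of the variance, DMSO replicate 4 at 4 h stood apart on the last of them. The summed level of 7 melanocyte markers was 15233 to 19498 CPM in all samples, where CPM is the count scaled to a common library size. The 5 endothelial and the 5 leukocyte markers summed to at most 1.50 CPM and none had enough reads to be tested. At 24 h the IDE196 and DMSO libraries were apart in several measures of the reads. Reads of mitochondrial genes were 6.66% to 7.74% of the reads in genes with IDE196 and 3.79% to 5.28% with DMSO, unmapped reads were 1.99% to 2.37% against 1.42% to 1.49%, and multimapping reads 4.04% to 5.26% against 3.32% to 3.53%. Reads that fell in no gene were 2.90% to 3.44% against 2.29% to 2.86%, and 22854 to 23253 genes had a read against 21902 to 22706. The 4 h groups overlapped in all of these, and the part of these measures in the 24 h effects was not tested.

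The effect of IDE196 was broader and larger at 24 h than at 4 h. At 4 h the test gave 1063 genes above DMSO and 1435 below it (6.89% and 9.30% of genes tested, 16.2% together). At 24 h it gave 4429 above and 4539 below (28.7% and 29.4%, 58.1% together). The difference itself was called for 4733 genes (30.7%), with 2085 differences above 0 (13.5%) and 2648 below 0 (17.2%), and 422 of the 4733 differed by at least 2 on the log2 scale. The median absolute log2 fold change over all genes was 0.21 at 4 h and 0.53 at 24 h, while the median log2 fold change was 0.01 and 0.03.

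Late only was the largest class, with 1576 higher and 1987 lower genes (23.1% of genes tested). A further 2106 genes (13.6%) were sustained, 5.68% higher and 7.96% lower. Of these, 892 grew (5.78%: 2.29% higher, 3.49% lower), 1198 were steady (7.76%: 3.36% higher, 4.40% lower) and 16 shrank (0.104%: 0.0259% higher, 0.0777% lower). Early only effects were found for 124 genes (0.803%), 59 higher (0.382%) and 65 lower (0.421%). The 55 reversing genes (0.356%) were 32 that went from lower at 4 h to higher at 24 h and 23 that went the other way. The reversing count was 32 without IDE196 replicate 2 at 4 h and 34 without DMSO replicate 4 at 24 h. Most genes called at 4 h had the same sign at 24 h: 993 of the 1063 higher genes, whose median went from 0.56 to 0.91, and 1354 of the 1435 lower genes, whose median went from -0.54 to -0.85. Another 3457 genes (22.4%) were called at 1 time while their difference was not called, so their class could not be resolved. In 83 genes (0.538%) the difference was called and neither time was, and 6049 genes (39.2%) had no call. Between the control samples themselves, DMSO at 24 h against DMSO at 4 h gave 41 genes (0.266%), and 20 of the 4733 genes with a called difference were among them. That count was 4 without DMSO replicate 6 at 24 h, 9 without DMSO replicate 4 at 24 h and 16 without DMSO replicate 6 at 4 h. In IDE196 the same comparison gave 7252 genes (47.0%), 4464 of the 4733 among them.

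**Figure D1:**
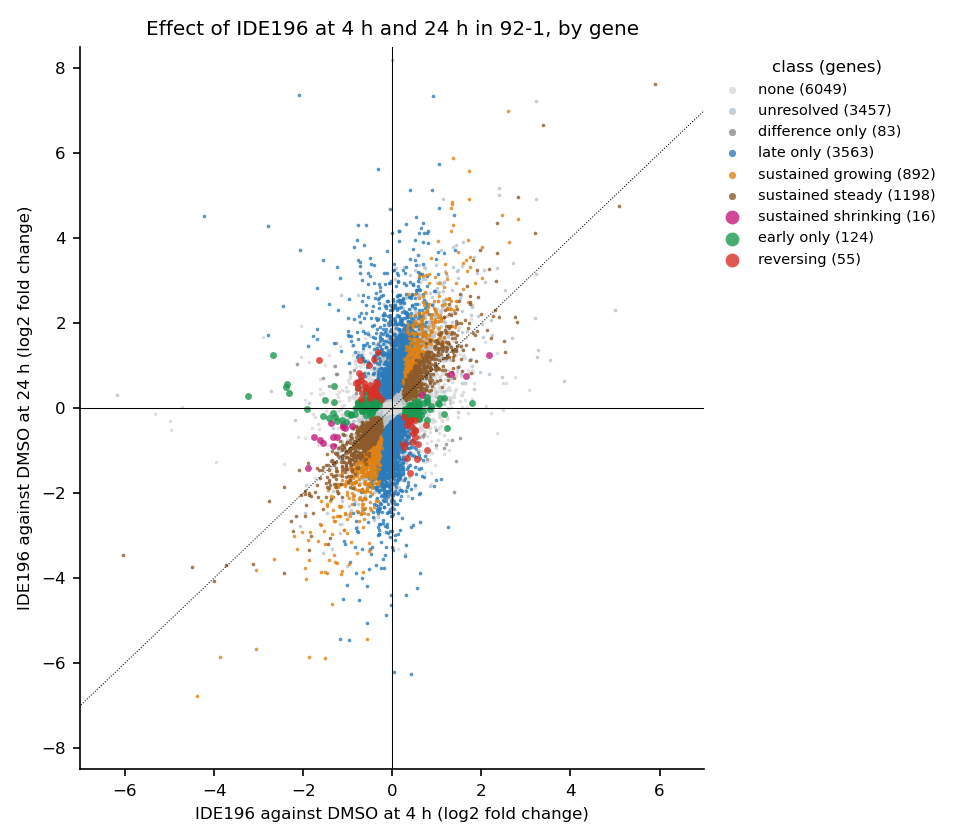
Each point is 1 of the 15437 genes tested, at its log2 fold change of IDE196 over DMSO at 4 h (horizontal) and at 24 h (vertical), coloured by time class. Most coloured points form a vertical band around 0 at 4 h, the late only genes, and the sustained genes lie along the diagonal from lower left to upper right.

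Genes of the immediate early response were lower from the first time point, and most of those that were lower at 4 h remained lower at 24 h. Of 19 immediate early and AP-1 genes tested, 11 were lower and 4 higher at 4 h (against 9.30% and 6.89% of all genes), the latter JUN, JUND, ATF3 and KLF6. At 24 h, 10 were lower and 5 higher (29.4% and 28.7%), the latter JUN, ATF3, KLF2, KLF6 and KLF10. Their median log2 fold change was -0.88 at 4 h and -0.49 at 24 h, beside 0.01 and 0.03 over all genes. The difference was called for 3 of them, FOS, FOSL1 and IER5, against 30.7% of all genes. EGR1, a zinc finger transcription factor induced by ERK through serum response factor (SRF), was at 13.9, 17.9 and 9.86 CPM in DMSO and 0.368, 1.56 and 0.746 CPM in IDE196 at 4 h. At 24 h it was at 12.9, 12.8 and 11.1 CPM in DMSO and 1.06, 0.478 and 0.594 CPM in IDE196. All 6 treated samples were below all 6 control samples. The log2 fold change was -4.00 (SE 0.33, adjusted p 3.01e-07) at 4 h and -4.07 (SE 0.34, adjusted p 2.14e-08) at 24 h, and the difference of -0.07 (SE 0.52, adjusted p 0.938) was not called.

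The promoter of EGR1 is shown because SRF, the factor that links ERK to these genes, binds the CArG box. The sequence is from RefSeq (GRCh38.p14), chr5:138465299-138465498, plus strand, and runs from 180 bases before to 20 bases after the start, with 2 CArG boxes in capitals.
EGR1: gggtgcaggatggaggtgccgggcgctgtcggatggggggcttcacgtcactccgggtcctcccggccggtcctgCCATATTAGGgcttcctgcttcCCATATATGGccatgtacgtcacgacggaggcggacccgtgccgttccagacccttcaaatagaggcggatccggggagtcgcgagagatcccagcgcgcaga
A CArG box was present within 250 bases before to 50 after the start in 1 of the 13 immediate early genes with a promoter in the RefSeq table, that of EGR1, and in 0.954% of the 7231 tested protein-coding genes matched by symbol. Such a match is a description of the letters in this window.

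FOS (hg38 chr14:75278774-75282230, plus strand), which forms the AP-1 factor with JUN, was the early only member. In IDE196 at 4 h it was at 3.64, 2.31 and 3.30 CPM against 9.87, 14.1 and 11.3 CPM in DMSO. In IDE196 at 24 h it was at 9.27, 13.3 and 9.62 CPM against 10.6, 11.4 and 10.7 CPM in DMSO. The groups were apart at 4 h and overlapped at 24 h. The log2 fold change was -1.92 (SE 0.19, adjusted p 2.14e-06) at 4 h and -0.02 (SE 0.17, adjusted p 0.917) at 24 h, and the difference was 1.90 (SE 0.26, adjusted p 3.18e-05). The related JUNB and FOSB were steady and lower, at -1.41 and -1.46 for JUNB and -1.25 and -1.49 for FOSB at 4 h and 24 h. JUN was steady and higher, at 1.47 and 2.01, as was the stress factor ATF3 at 1.09 and 1.76. IER5 was lower at 24 h only (-0.08 and -1.05). FOSL1 was lower at both times (-1.87 and -3.58), but its difference of -1.71 (adjusted p 0.0419) was lost without any 1 of 9 of the 12 libraries, with an adjusted p of up to 0.136 without IDE196 replicate 1 at 24 h.

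The NR4A nuclear receptors, orphan receptors that are also immediate early genes, were lower at both times for 3 of 3 genes, where 9.30% of all genes were lower at 4 h and 29.4% at 24 h. NR4A3 (hg38 chr9:99821855-99866891, plus strand) was at 266, 212 and 268 CPM in DMSO and 17.8, 15.2 and 18.5 CPM in IDE196 at 4 h. At 24 h the levels were 289, 329 and 318 CPM against 5.63, 5.73 and 4.75 CPM. NR4A3 in IDE196 was thus at 0.0691 times its control at 4 h and 0.0173 times its control at 24 h, a log2 fold change of -3.86 (SE 0.12, adjusted p 1.11e-12) and -5.85 (SE 0.13, adjusted p 8.06e-15) and a difference of -2.00 (SE 0.16, adjusted p 1.65e-07). NR4A1 followed the same course, at -2.65 and -3.55 with a difference of -0.90 (adjusted p 0.000273); its counts come from a locus where other annotated genes overlap, and without strand their reads cannot be told apart. NR4A2 was at low level, 1.06 to 3.61 CPM, with log2 fold changes of -0.83 and -1.56, and its 4 h call was lost without any 1 of 3 libraries, IDE196 replicate 2 among them (adjusted p 0.0681).

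The feedback regulators of the MAP kinase pathway were mostly lower at both times, with a larger median effect at 24 h. Of 22 genes tested, 15 were lower and 2 higher (1 without DMSO replicate 6) at 4 h, 17 were lower and 3 higher (DUSP10, DUSP16 and SPRED3) at 24 h, and the difference was below 0 for 12 and above 0 for none. Over all genes 9.30% were lower and 6.89% higher at 4 h, and 29.4% and 28.7% at 24 h. The difference was below 0 for 17.2% of all genes and above 0 for 13.5%. The median log2 fold change went from -0.87 to -1.69, and the median difference was -0.64 beside 0.01 over all genes. SPRY4 (hg38 chr5:142310427-142326455, minus strand), an inhibitor of receptor tyrosine kinase signalling, was at 161, 124 and 138 CPM in DMSO and 17.0, 17.6 and 16.2 CPM in IDE196 at 4 h. It was at 103, 121 and 113 CPM in DMSO and 1.95, 2.53 and 2.11 CPM in IDE196 at 24 h. Each IDE196 sample was below each control, by a mean log2 fold change of -3.05 (SE 0.11) at 4 h and -5.68 (SE 0.14) at 24 h, a difference of -2.63 (SE 0.18, adjusted p 1.97e-08).

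DUSP6, the phosphatase that inactivates ERK, was at 20.3, 19.6 and 20.3 CPM in DMSO and 5.68, 6.28 and 7.08 CPM in IDE196 at 4 h, and at 25.2, 21.3 and 23.1 CPM against 3.26, 2.72 and 1.94 CPM at 24 h. Its log2 fold change went from -1.66 to -3.12, with a difference of -1.45 (SE 0.21, adjusted p 5.88e-05). Growing genes also included SPRY2 (-1.95 and -3.76), DUSP1, SPRED1, SPRED2, PHLDA1, the ETS factors ETV1 (-0.92 and -3.15) and ETV5 (-1.01 and -2.94), and the receptor EPHA2 (-1.25 and -2.55). Steady lower genes were DUSP2, DUSP4, DUSP5, DUSP7 and SPRY1, with 4 h log2 fold changes from -1.11 for DUSP7 to -2.22 for DUSP2. ETV4, the third member of the PEA3 group of ETS factors, was not called at 4 h (129, 143 and 143 CPM in DMSO, 108, 125 and 133 CPM in IDE196). Its levels at 24 h were 130, 137 and 130 CPM in DMSO and 8.34, 10.9 and 9.99 CPM in IDE196, a log2 fold change of -3.76 (SE 0.11) and a difference of -3.58 (SE 0.15, adjusted p 5.73e-11). DUSP10 and DUSP16, phosphatases that act on JNK and p38, were steady and higher, DUSP16 by 1.27 and 1.19.

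RGS16, a GTPase activating protein that ends G protein signals, was lower at both times and further so at 24 h. It was at 16.1, 14.0 and 19.8 CPM in DMSO and 0.613, 0.854 and 0.959 CPM in IDE196 at 4 h, and at 16.0, 19.4 and 24.2 CPM against 0.127, 0.239 and 0.162 CPM at 24 h. The treated samples of both times were below 1 CPM, with log2 fold changes of -4.38 (SE 0.23) and -6.78 (SE 0.29) and a difference of -2.41 (SE 0.48, adjusted p 0.000940). Upstream in the Gq pathway, 2 of 24 genes were lower at 4 h (RASGRP3 and the diacylglycerol kinase DGKD) and 9 at 24 h, while 2 were higher at 4 h (PRKCH and PRKCZ) and 7 at 24 h, 4 without DMSO replicate 4 at 24 h (over all genes, 9.30% were lower and 6.89% higher at 4 h, 29.4% and 28.7% at 24 h). At 4 h none was higher without DMSO replicate 6 and 1 was lower without DMSO replicate 5. The 4 h call of PRKCH (0.33, adjusted p 0.0436) was lost without any 1 of 10 libraries, with an adjusted p of up to 0.181 without IDE196 replicate 2 at 4 h. RASGRP3, the exchange factor between PKC and RAS, was at 259, 212 and 260 CPM in DMSO and 100, 93.5 and 98.1 CPM in IDE196 at 4 h. The 24 h levels were 253, 252 and 248 CPM in DMSO and 45.4, 41.6 and 40.3 CPM in IDE196. All treated samples were below all controls, at log2 fold changes of -1.32 (SE 0.09) and -2.56 (SE 0.09), a difference of -1.24 (SE 0.13, adjusted p 1.49e-06). The phospholipase PLCB1 was not called at 4 h and was lower at 24 h (28.4, 23.2 and 22.5 CPM in DMSO and 27.9, 25.8 and 24.2 CPM in IDE196 at 4 h, 19.9, 20.0 and 18.4 CPM and 2.46, 2.20 and 2.11 CPM at 24 h), with a difference of -3.17 (SE 0.18, adjusted p 4.60e-09). PLCB4, whose activating mutations also occur in uveal melanoma, was late only too, at 0.25 and -1.54. GNAQ itself was not called at either time (-0.04 and 0.23).

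**Figure D2:**
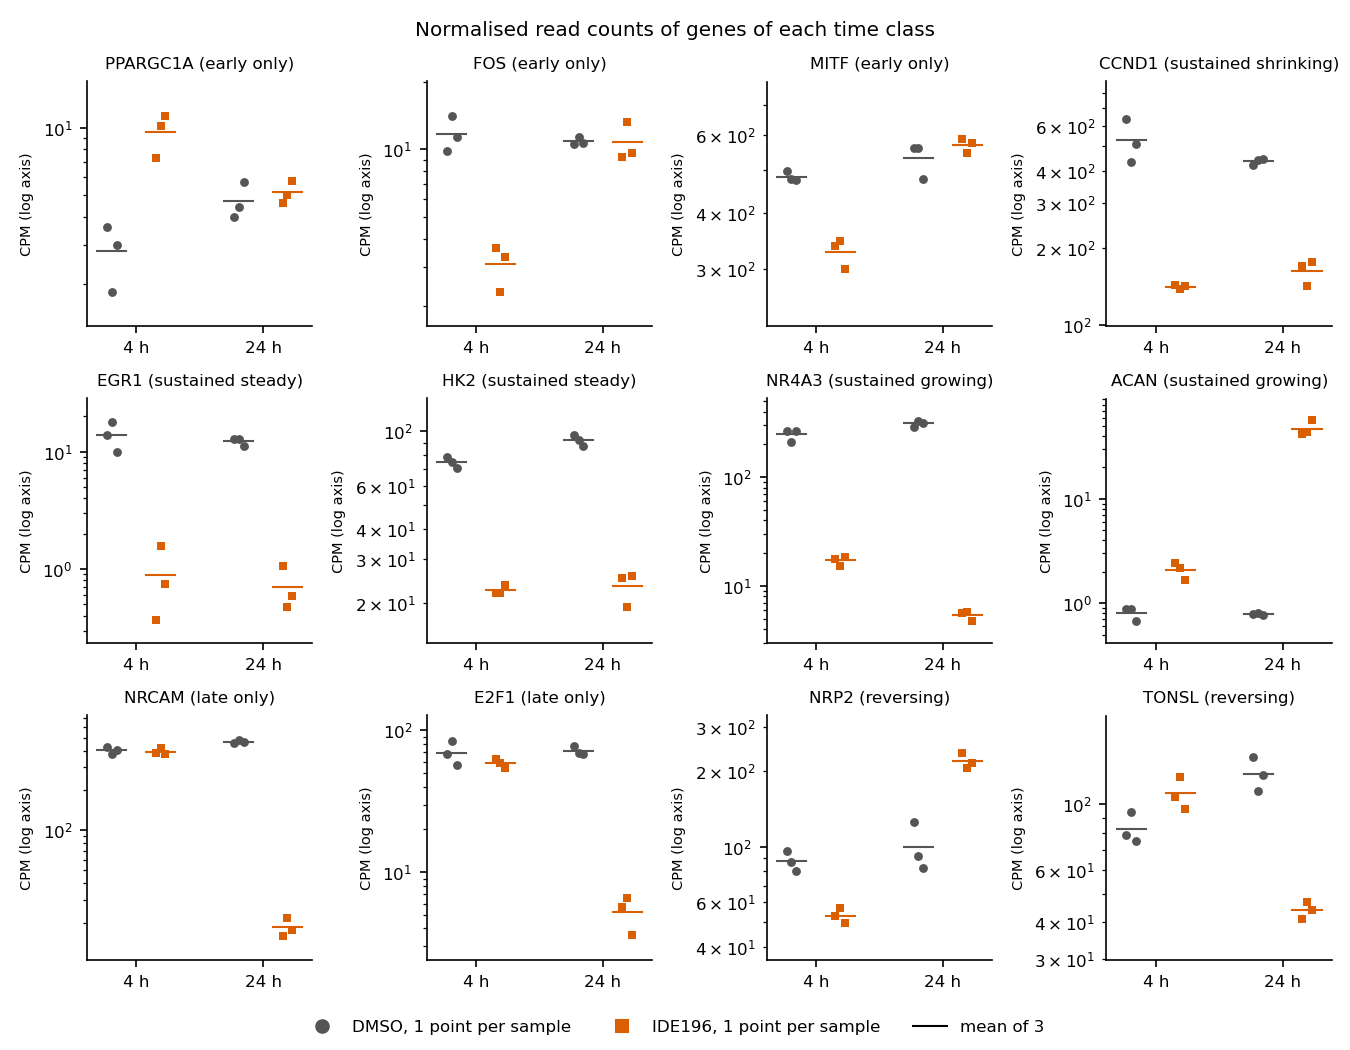
Level of 12 genes in each of the 12 samples, in CPM on a log axis, with 1 point per sample and a line at the mean of the 3 samples of a group. PPARGC1A, FOS and MITF are apart at 4 h and together again at 24 h, NR4A3 and CCND1 are apart at both times, and NRCAM and E2F1 are apart at 24 h.

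PPARGC1A had the largest difference of the early only higher genes that the naming rule gave. It encodes PGC-1alpha, a coactivator of mitochondrial gene expression that is under MITF control in melanocytic cells. It was at 3.61, 1.84 and 2.98 CPM in DMSO and 7.32, 10.2 and 11.3 CPM in IDE196 at 4 h, and at 4.00, 4.44 and 5.70 CPM against 4.61, 5.01 and 5.78 CPM at 24 h. The groups were apart at 4 h, 3.42-fold, and overlapped at 24 h. The log2 fold change was 1.78 (SE 0.23, adjusted p 3.83e-05) at 4 h and 0.12 (SE 0.23, adjusted p 0.681) at 24 h, and the difference was -1.66 (SE 0.32, adjusted p 0.000844). The tight junction protein gene CGN (1.17 and -0.13, difference -1.30) was also higher at 4 h. Also higher, and chosen after their values were seen, were the phosphodiesterase PDE4B (1.03 and 0.11) and IFRD1 (1.06 and 0.09).

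On the lower side, FRMD6, a FERM domain protein of the Hippo pathway, was at 59.6, 42.2 and 45.9 CPM in DMSO and 20.6, 15.7 and 15.0 CPM in IDE196 at 4 h. At 24 h it was at 34.2, 35.7 and 34.0 CPM in DMSO and 41.5, 37.2 and 40.1 CPM in IDE196. The 3 treated samples were lowest at 4 h and highest at 24 h, though the 24 h value of 0.19 (SE 0.13, adjusted p 0.213) was not called. The 4 h value was -1.52 (SE 0.13, adjusted p 5.57e-07) and the difference 1.72 (SE 0.19, adjusted p 2.96e-06). SH3TC1 (-1.55 and -0.19, difference 1.36) was in the same class. MITF, the master factor of the melanocyte lineage, was early only as well. It was at 498, 477 and 474 CPM in DMSO and 337, 346 and 300 CPM in IDE196 at 4 h, and at 560, 560 and 477 CPM against 587, 545 and 576 CPM at 24 h. Its log2 fold change was -0.56 (SE 0.09, adjusted p 0.000209) and then 0.10 (SE 0.09, adjusted p 0.356), with a difference of 0.66 (SE 0.12, adjusted p 0.000567). The RNA decay factor ZFP36 (-0.78 and 0.08) and the adaptor PAG1 (-0.92 and -0.15) were also early only and lower.

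The 16 shrinking genes kept their sign and moved back toward control. FBXO32, an E3 ubiquitin ligase subunit and FOXO target, was at 16.9, 12.5 and 16.3 CPM in DMSO and 66.6, 61.0 and 77.5 CPM in IDE196 at 4 h, and at 13.1, 17.3 and 22.5 CPM against 36.4, 44.7 and 45.2 CPM at 24 h. All treated samples were above all controls at both times, by 2.17 (SE 0.17) and 1.26 (SE 0.17), a difference of -0.91 (SE 0.23, adjusted p 0.00600). FST, which encodes the activin antagonist follistatin, went from 1.65 to 0.75 (difference -0.89, adjusted p 0.00223). TNFRSF21, a death domain receptor, was at 38.6, 42.0 and 48.8 CPM in DMSO and 8.71, 13.3 and 16.7 CPM in IDE196 at 4 h. Its levels at 24 h were 52.4, 55.7 and 68.1 CPM against 42.3, 32.5 and 35.7 CPM. The gap narrowed from -1.75 (SE 0.18) to -0.67 (SE 0.17), a difference of 1.08 (SE 0.24, adjusted p 0.00261), and FAM89A (-1.38 and -0.36) and the sialyltransferase gene ST3GAL1 (-1.62 and -0.76) narrowed too.

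CCND1, the gene for cyclin D1, was in the same class. Its levels were 635, 434 and 509 CPM in DMSO and 144, 139 and 142 CPM in IDE196 at 4 h, and at 420, 440 and 445 CPM against 170, 142 and 176 CPM at 24 h. Treated samples were below controls throughout, 3.71-fold at 4 h and 2.67-fold at 24 h. The log2 fold changes of -1.89 (SE 0.12, adjusted p 1.11e-08) and -1.42 (SE 0.12, adjusted p 1.71e-08) held without any 1 library, but the difference of 0.47 (SE 0.16, adjusted p 0.0346) was lost without any 1 of 9 libraries. Without DMSO replicate 4 at 4 h, whose level of 635 CPM was the highest, it was 0.31 (adjusted p 0.0931). Among other members of the 11 tested D cyclins, partner kinases and CDK inhibitors, CCND3 was growing (-0.38 and -1.02), although its 4 h call was lost without DMSO replicate 5 at 4 h (adjusted p 0.0505). The CDK inhibitor CDKN1B, p27, was steady and higher (0.89 and 0.66), and CDKN1C, p57, was late only and higher (-0.26 and 0.94). CDKN1A, p21, was not called at either time (0.37 and -0.26).

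Of 43 genes of DNA replication tested, 4 were lower (MCM10, CDC6, FEN1 and CCNE2) and 1 higher (POLD1) at 4 h, against 9.30% and 6.89% of all genes. All 43 were lower at 24 h, and all 43 differences were below 0, against 29.4% and 17.2% of all genes. The median log2 fold change was -0.02 at 4 h and -1.79 at 24 h, and 38 of the 43 were late only (23.1% of all genes). The 4 h counts depended on single libraries: 1 was lower without IDE196 replicate 3 and 6 were lower without DMSO replicate 6 at 4 h. CDC6 was called at 4 h whichever library was left out, while the call of MCM10 was lost without IDE196 replicate 3 at 4 h (adjusted p 0.0504), and that of POLD1 without DMSO replicate 6 or IDE196 replicate 1 at 4 h (adjusted p up to 0.0882). Of 13 E2F and RB family genes, 2 were lower (E2F3 and E2F5) and 1 higher (TFDP2) at 4 h (9.30% and 6.89% of all genes), and 10 were lower and 2 higher (TFDP2 and RBL2) at 24 h (29.4% and 28.7%). At 4 h, 1 was lower without IDE196 replicate 3 and none higher without DMSO replicate 5. In bulk RNA, fewer cells in S phase and less RNA of these genes per cell cannot be told apart.

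E2F1, the activator of the replication genes, was at 68.6, 83.8 and 57.0 CPM in DMSO and 62.9, 59.1 and 54.6 CPM in IDE196 at 4 h. The 24 h levels were 77.8, 69.6 and 68.4 CPM in DMSO and 5.63, 6.54 and 3.62 CPM in IDE196. The groups overlapped at 4 h and were apart at 24 h, where the treated level was 0.0738 times the control. The log2 fold change was -0.25 (SE 0.14, adjusted p 0.286) at 4 h and -3.76 (SE 0.17, adjusted p 2.32e-11) at 24 h, a difference of -3.51 (SE 0.22, adjusted p 1.15e-08). E2F2 (-0.01 and -3.26), E2F7 (-0.10 and -1.82) and E2F8 (-0.19 and -2.32) were late only too. CDC6, which loads the MCM helicase on origins, was at 96.7, 109 and 92.7 CPM in DMSO and 68.2, 76.6 and 62.5 CPM in IDE196 at 4 h, and at 110, 90.9 and 87.3 CPM against 10.2, 11.4 and 10.2 CPM at 24 h. It was already lower at 4 h, by -0.52 (SE 0.10, adjusted p 0.00187), and reached -3.18 (SE 0.12, adjusted p 2.28e-12), a difference of -2.66 (SE 0.16, adjusted p 5.64e-09).

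Among the other replication genes with the largest differences were UHRF1, which maintains DNA methylation (-0.25 and -3.16), the helicase cofactor CDC45 (-0.09 and -2.95), the replication factor MCM10 (-0.52 and -3.36) and DTL (-0.11 and -2.81), a ubiquitin ligase adaptor. The sliding clamp PCNA was at 145, 169 and 162 CPM in DMSO and 159, 159 and 155 CPM in IDE196 at 4 h, and at 186, 156 and 185 CPM against 41.3, 39.4 and 31.7 CPM at 24 h. Its 4 h groups overlapped, and its difference was -2.22 (SE 0.15, adjusted p 1.80e-08). TONSL, which restarts stalled forks, was one of the reversing genes, from 0.40 to -1.53.

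Genes of mitosis followed with smaller 24 h effects. Of 40 tested, none was lower and 3 were higher (CDC25C, KIF20A and HMMR) at 4 h, against 9.30% and 6.89% of all genes, 35 were lower and none higher at 24 h (29.4% and 28.7%), and 36 differences were below 0 (17.2%). The 4 h higher count was 2 without IDE196 replicate 2 at 4 h and 5 without DMSO replicate 6 at 24 h. The median went from 0.09 to -0.88, and 33 of the 40 were late only (23.1% of all genes). MYBL2, a factor bound to mitotic gene promoters, was at 307, 320 and 250 CPM in DMSO and 300, 334 and 265 CPM in IDE196 at 4 h. At 24 h it was at 321, 285 and 228 CPM against 55.8, 62.5 and 43.3 CPM. It thus had overlapping groups at 4 h and a difference of -2.40 (SE 0.20, adjusted p 1.95e-07). MAD2L1 of the spindle checkpoint (-0.19 and -1.83), CDK1 (-0.25 and -1.66) and CCNB1, cyclin B1 (0.12 and -1.14), were late only, as were PLK1 (-0.17 and -0.94) and CDC20 (-0.08 and -0.86).

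KIF20A, a kinesin of cytokinesis, was early only and higher. It was at 55.8, 57.5 and 51.7 CPM in DMSO and 86.2, 79.2 and 82.5 CPM in IDE196 at 4 h, and at 55.3, 49.9 and 47.5 CPM against 55.2, 56.1 and 41.6 CPM at 24 h. Its groups were apart at 4 h, 1.50-fold, and overlapped at 24 h, with a difference of -0.59 (SE 0.15, adjusted p 0.00665). HMMR, a spindle protein, was reversing (0.38 and -0.34), but its 4 h call was lost without DMSO replicate 4, DMSO replicate 5 or IDE196 replicate 2 at 4 h (adjusted p up to 0.119) and its 24 h call without DMSO replicate 5 or IDE196 replicate 3 at 24 h (adjusted p up to 0.0572).

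The promoters of 5 of these genes are shown because the replication and mitosis lists differ in the elements they hold. E2F sites (TTTCCCGC or TTTGGCGC), the cell cycle homology region (CHR, TTTGAA) and CCAAT boxes (CCAAT) are in capitals, on either strand. Sequences are from RefSeq (GRCh38.p14), 180 bases before to 20 after the start: E2F1 at chr20:33686366-33686565, minus strand, CDC6 at chr17:40287699-40287898, plus strand, PLK1 at chr16:23678709-23678908, plus strand, CDC20 at chr1:43358801-43359000, plus strand, and KIF20A at chr5:138178932-138179131, plus strand.
E2F1: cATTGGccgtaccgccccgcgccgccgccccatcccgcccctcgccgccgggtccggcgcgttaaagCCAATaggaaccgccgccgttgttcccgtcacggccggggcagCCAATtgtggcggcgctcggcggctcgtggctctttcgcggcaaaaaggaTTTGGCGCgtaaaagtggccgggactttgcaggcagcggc
CDC6: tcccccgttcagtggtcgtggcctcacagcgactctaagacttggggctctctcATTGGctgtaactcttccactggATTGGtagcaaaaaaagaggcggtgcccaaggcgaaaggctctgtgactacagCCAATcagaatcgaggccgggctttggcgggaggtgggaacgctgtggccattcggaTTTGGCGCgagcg
PLK1: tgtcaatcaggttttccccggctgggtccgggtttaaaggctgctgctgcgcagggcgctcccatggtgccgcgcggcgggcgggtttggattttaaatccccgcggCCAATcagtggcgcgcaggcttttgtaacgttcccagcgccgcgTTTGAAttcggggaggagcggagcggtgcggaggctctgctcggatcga
CDC20: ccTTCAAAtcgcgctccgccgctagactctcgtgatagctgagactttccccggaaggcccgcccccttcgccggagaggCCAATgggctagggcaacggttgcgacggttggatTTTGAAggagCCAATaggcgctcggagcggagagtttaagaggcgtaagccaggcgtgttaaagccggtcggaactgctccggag
KIF20A: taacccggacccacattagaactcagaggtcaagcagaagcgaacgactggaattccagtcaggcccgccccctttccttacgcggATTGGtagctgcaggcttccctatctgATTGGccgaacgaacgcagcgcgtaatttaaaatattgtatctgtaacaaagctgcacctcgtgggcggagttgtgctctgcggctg
The promoters of E2F1 and CDC6 each hold 1 E2F site and 3 CCAAT boxes, that of PLK1 holds 1 CHR and 1 CCAAT box, that of CDC20 holds 2 of each, and that of KIF20A holds 2 CCAAT boxes and no TTTGAA.

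Over the 300 bases from 250 before to 50 after the start, an E2F site was found in 15 of 31 replication genes with a promoter in the table (48.4%), against 3.96% of the 7231 tested protein-coding genes matched and 2.23% of all 22114 promoters. Among late only lower genes the share was 7.22%. The CHR was found in 21 of 28 mitosis genes (75.0%), against 9.13% of tested genes and 16.0% of all promoters. Among early only higher genes it was in 9 of 35 (25.7%), and among late only lower genes in 12.6%. CCAAT boxes were in 75.0% of mitosis and 54.8% of replication promoters, against 38.1% of tested genes. These are counts of matching letters, with no measurement of binding.

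The late only lower genes with the largest differences under the naming rule were ALK, VGF and NRCAM. ALK, a receptor tyrosine kinase of the neural crest, was at 12.4, 17.6 and 29.4 CPM in DMSO and 13.8, 16.8 and 30.6 CPM in IDE196 at 4 h, and at 22.1, 27.0 and 43.3 CPM against 0.550, 0.525 and 0.108 CPM at 24 h. The 4 h groups were interleaved and the 24 h groups were far apart, a difference of -6.25 (SE 0.61, adjusted p 1.04e-06). NRCAM (hg38 chr7:108147623-108456717, minus strand), a neuronal cell adhesion molecule, was at 423, 377 and 402 CPM in DMSO and 383, 417 and 378 CPM in IDE196 at 4 h. Its levels at 24 h were 453, 477 and 460 CPM against 16.1, 21.9 and 17.7 CPM, with a difference of -4.61 (SE 0.14, adjusted p 1.82e-12). VGF, a secreted neuropeptide precursor, was at 694, 1068 and 746 CPM in DMSO and 614, 880 and 798 CPM in IDE196 at 4 h, and at 789, 697 and 712 CPM against 21.0, 36.1 and 17.8 CPM at 24 h. Its 4 h groups overlapped and its difference was -4.74 (SE 0.30, adjusted p 1.15e-08).

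On the higher side of late only, SEMA3B, a secreted semaphorin, was at 5.11, 4.07 and 3.24 CPM in DMSO and 4.13, 4.77 and 4.58 CPM in IDE196 at 4 h, and at 2.68, 2.88 and 2.81 CPM against 25.1, 23.5 and 27.1 CPM at 24 h. The treated samples of 24 h were above all the others, with a difference of 3.06 (SE 0.23, adjusted p 5.33e-08). PDZD2, a PDZ domain protein, had the larger 24 h value (0.80 and 4.17, difference 3.37, SE 0.39, adjusted p 5.91e-06). ERBB3, the neuregulin receptor, was at 169, 143 and 177 CPM in DMSO and 171, 179 and 175 CPM in IDE196 at 4 h, and at 167, 190 and 186 CPM against 694, 817 and 965 CPM at 24 h. Treated samples at 24 h were above all others, and the difference was 2.09 (SE 0.16, adjusted p 6.46e-08). RET (0.22 and 2.25) and FGFR3 (0.16 and 2.17) were late only too, and FGFR2 was growing (1.58 and 3.42), as was the neurotrophin receptor NTRK2 (0.90 and 2.21). Of 22 receptor tyrosine kinases tested, 4 were higher (ERBB2, FGFR2, INSR and NTRK2) and 1 lower (FGFR1, none without DMSO replicate 4) at 4 h, and 9 were higher and 5 lower (FGFR1, ALK, FLT4, RYK and ROR1) at 24 h. Over all genes 6.89% were higher and 9.30% lower at 4 h, and 28.7% and 29.4% at 24 h.

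The growing higher genes with the largest differences under the naming rule were ACAN, ADAMTS15 and PGM5. ACAN, the gene for aggrecan, the large proteoglycan of cartilage, was at 0.881, 0.878 and 0.667 CPM in DMSO and 2.45, 2.16 and 1.65 CPM in IDE196 at 4 h. The 24 h levels were 0.791, 0.804 and 0.765 CPM against 41.5, 43.5 and 56.3 CPM. Both pairs of groups were apart, with log2 fold changes of 1.37 (SE 0.23, adjusted p 0.000451) and 5.89 (SE 0.19, adjusted p 3.14e-13) and a difference of 4.52 (SE 0.33, adjusted p 5.54e-08). ADAMTS15, a protease that cleaves proteoglycans (1.72 and 5.57), and PGM5, aciculin of cell adhesion sites (1.33 and 4.80), had the same course. Of 27 proteoglycans and ADAMTS proteases, 3 were higher (ACAN, SDC4 and ADAMTS15) and 3 lower (SDC1, ADAMTS1 and ADAMTS5) at 4 h (6.89% and 9.30% of all genes), with 14 higher and 6 lower at 24 h (28.7% and 29.4%).

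Of 29 collagen genes tested, 1 was higher (COL9A1) and 1 lower (COL17A1) at 4 h against 6.89% and 9.30% of all genes, 16 were higher and 2 lower (COL13A1 and COL15A1) at 24 h against 28.7% and 29.4%, and the median went from 0.13 to 0.80. Late only was the class of 14 of the 29 (23.1% of all genes). COL9A1 was at 2.95, 3.15 and 4.09 CPM in DMSO and 5.56, 6.08 and 6.39 CPM in IDE196 at 4 h, and at 4.53, 6.81 and 7.61 CPM against 44.6, 55.8 and 69.7 CPM at 24 h. Treated samples were above controls at both times, with a difference of 2.34 (SE 0.28, adjusted p 8.36e-06). COL11A2 (0.05 and 1.50), COL18A1 (0.11 and 1.57) and COL9A3 (0.09 and 1.14) were late only. The 4 h call of COL17A1, at 2.82, 0.639 and 0.711 CPM in DMSO, was lost without any 1 of 4 libraries, with -1.28 (adjusted p 0.228) without DMSO replicate 4 at 4 h. The 6 fibroblast markers, of which COL1A1, COL1A2 and COL3A1 are also in the collagen list, summed to 6.60 to 36.9 CPM over the 12 samples. At 24 h the sum was 11.7 to 21.8 CPM in the IDE196 samples and 6.60 to 11.3 CPM in the DMSO samples. This sum is not a measure apart from the collagens, and the part of fibroblasts in the collagen levels was not tested. LAMA4, a laminin chain, was late only (-0.02 and 2.99), as was the collagen receptor ITGA2 (-0.10 and 2.16).

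Lower growing genes outside the pathways above included FGF9, a growth factor. It was at 73.2, 64.0 and 82.7 CPM in DMSO and 47.2, 36.2 and 56.3 CPM in IDE196 at 4 h, and at 70.3, 82.4 and 90.6 CPM against 6.22, 5.49 and 5.08 CPM at 24 h. Treated samples were below controls at both times, by -0.65 (SE 0.14, adjusted p 0.00323) and -3.85 (SE 0.17, adjusted p 1.22e-11). SLC16A6, a monocarboxylate transporter family member, was also growing (-1.15 and -3.91), and other annotated genes overlap its locus.

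Reversing genes crossed their control between the time points. NRP2 (hg38 chr2:205681990-205798133, plus strand), which encodes neuropilin 2, a coreceptor for semaphorins and VEGF-C, was at 96.2, 87.2 and 79.9 CPM in DMSO and 52.9, 57.1 and 49.5 CPM in IDE196 at 4 h. After 24 h it was at 125, 92.0 and 82.3 CPM in DMSO and 237, 205 and 216 CPM in IDE196. All treated samples were below controls at 4 h and above them at 24 h, by -0.72 (SE 0.13, adjusted p 0.000662) and 1.14 (SE 0.13, adjusted p 6.13e-07), a difference of 1.86 (SE 0.18, adjusted p 8.88e-07). GDF7, a BMP ligand, was at 13.5, 8.98 and 10.5 CPM in DMSO and 6.87, 6.33 and 6.39 CPM in IDE196 at 4 h, and at 10.6, 10.3 and 11.4 CPM against 20.4, 18.4 and 18.5 CPM at 24 h. It changed from -0.75 to 0.83. NEDD9, a scaffold of focal adhesions, went from -0.31 (adjusted p 0.0411) to 1.33. Its 4 h call was lost without any 1 of 7 libraries, with -0.23 (adjusted p 0.180) without IDE196 replicate 3 at 4 h.

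In the other direction, PKIA, an inhibitor of protein kinase A, was at 40.4, 38.0 and 42.2 CPM in DMSO and 65.0, 58.4 and 53.2 CPM in IDE196 at 4 h, and at 42.3, 43.3 and 39.8 CPM against 17.5, 18.9 and 17.8 CPM at 24 h. It went from 0.55 (SE 0.09, adjusted p 0.000403) to -1.21 (SE 0.10, adjusted p 1.15e-08), a difference of -1.76 (SE 0.13, adjusted p 6.46e-08). SLC2A4, the insulin-responsive glucose transporter, was at 7.58, 7.79 and 7.69 CPM in DMSO and 11.3, 14.8 and 13.9 CPM in IDE196 at 4 h. Its levels at 24 h were 12.3, 10.1 and 9.95 CPM against 4.66, 6.30 and 5.51 CPM, above controls at 4 h and below them at 24 h (0.79 and -0.98), and other annotated genes overlap its locus. TONSL was at 79.1, 94.0 and 75.1 CPM in DMSO and 106, 124 and 96.5 CPM in IDE196 at 4 h, and at 144, 111 and 126 CPM against 41.2, 47.0 and 43.9 CPM at 24 h. Its DMSO level was itself higher at 24 h (adjusted p 0.0241), and its 4 h call of 0.40 was lost without DMSO replicate 4, DMSO replicate 6 or IDE196 replicate 2 at 4 h (adjusted p up to 0.146). IRS1, the insulin receptor substrate, was lower at 4 h and higher at 24 h (-0.71 and 0.67, difference 1.38, SE 0.21, adjusted p 8.68e-05).

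Ribosome biogenesis genes, which build ribosomes in the nucleolus and are classical MYC targets, were lower at both times and more so at 24 h. Of 50 tested, 36 were lower and none higher at 4 h, 43 were lower and 3 higher at 24 h (POLR1D, TAF1D and NOB1), and the difference was below 0 for 33 and above 0 for 4, the latter with POLR1E (2 without DMSO replicate 6 at 4 h). Over all genes 9.30% were lower and 6.89% higher at 4 h, and 29.4% and 28.7% at 24 h. The difference was below 0 for 17.2% of all genes and above 0 for 13.5%. The median went from -0.50 to -1.20, and 27 genes were growing and lower (3.49% of all genes). NOLC1, a nucleolar chaperone of ribonucleoproteins, was at 404, 422 and 418 CPM in DMSO and 290, 303 and 309 CPM in IDE196 at 4 h, and at 431, 434 and 410 CPM against 117, 113 and 115 CPM at 24 h. Samples within a group were close and the groups were apart at both times, by -0.46 (SE 0.07, adjusted p 0.000218) and -1.89 (SE 0.08, adjusted p 4.87e-12). GNL3, nucleostemin, was also growing (-0.55 and -1.78), and BOP1 of the 60S assembly complex was late only (-0.03 and -1.20).

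MYC itself was at 225, 291 and 308 CPM in DMSO and 112, 126 and 181 CPM in IDE196 at 4 h. The 24 h levels were 298, 314 and 415 CPM against 99.1, 111 and 92.5 CPM. It was 1.97-fold lower at 4 h and 3.40-fold lower at 24 h, with a difference of -0.79 (SE 0.23, adjusted p 0.0149). The MYC antagonists MXD4 (0.65 and 1.99) and MXI1 (0.26 and 1.33), which compete for the partner MAX, were higher at 24 h, with differences of 1.34 (adjusted p 6.23e-05) and 1.07 (adjusted p 3.98e-05). Of the same family, MXD3 was early only and higher (0.85 and -0.02, difference -0.88, adjusted p 0.0196, or 0.0627 without DMSO replicate 6 at 24 h), and MXD1 was higher at both times (0.82 and 0.40) with no called difference. Of 12 genes of the MYC and MAX network, 3 were higher and 3 lower at 4 h (6.89% and 9.30% of all genes; 1 lower without DMSO replicate 6 at 4 h), with 4 higher and 4 lower at 24 h (28.7% and 29.4%). Of the 73 cytosolic ribosomal protein genes, none was called at 4 h (16.2% of all genes), 6 were lower at 24 h (29.4% of all genes; 3 without IDE196 replicate 3 at 24 h), and the medians were 0.04 and -0.01. Of these 73, RPL26 was the only one with a called difference (-1.24, adjusted p 0.000365).

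The E-box CACGTG is the site that MYC and MAX bind. The promoters of a growing and a steady lower biogenesis gene are shown with it in capitals, both from the minority of biogenesis promoters that hold it. Both are from RefSeq (GRCh38.p14), 180 bases before to 20 after the start: UTP20, a component of the small subunit processome, at chr12:101279925-101280124, plus strand, and PNO1, a 40S assembly factor, at chr2:68157708-68157907, plus strand.
UTP20: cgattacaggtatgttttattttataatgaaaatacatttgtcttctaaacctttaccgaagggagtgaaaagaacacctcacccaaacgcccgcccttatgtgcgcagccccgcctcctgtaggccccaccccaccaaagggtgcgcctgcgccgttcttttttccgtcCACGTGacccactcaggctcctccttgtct
PNO1: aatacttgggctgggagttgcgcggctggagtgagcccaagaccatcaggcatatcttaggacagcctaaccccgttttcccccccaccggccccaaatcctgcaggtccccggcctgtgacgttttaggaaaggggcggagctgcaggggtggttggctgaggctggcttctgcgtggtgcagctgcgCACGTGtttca
The log2 fold changes were -0.61 and -1.58 for UTP20 and -1.14 and -1.60 for PNO1. Within 300 bases the E-box, which reads the same on both strands, was present in 13 of 33 ribosome biogenesis promoters (39.4%), against 10.5% of tested genes and 7.28% of all promoters. The share was 16.5% among growing lower genes, 16.3% among steady lower genes and 11.9% among late only lower genes. The longer CLEAR element of lysosomal genes contains this E-box, and a match says nothing of which factor binds.

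Of 27 glycolysis and hypoxia response genes, 7 were lower and 3 higher (PFKFB4, BNIP3L and NDRG1) at 4 h (9.30% and 6.89% of all genes), and 15 were lower and 7 higher at 24 h (29.4% and 28.7% of all genes). Their time classes were 9 sustained, 8 late only and 1 early only, with 5 unresolved, against 13.6%, 23.1%, 0.803% and 22.4% of all genes. HK2, hexokinase 2, was at 78.6, 75.0 and 71.1 CPM in DMSO and 21.8, 21.9 and 23.6 CPM in IDE196 at 4 h, and at 96.6, 92.4 and 87.5 CPM against 25.1, 19.2 and 25.6 CPM at 24 h. It was below control at both times, with log2 fold changes of -1.74 (SE 0.11) and -1.98 (SE 0.11) and a difference of -0.25 (SE 0.15, adjusted p 0.222) that was not called. HK1, hexokinase 1, was growing: 285, 262 and 264 CPM in DMSO and 151, 168 and 177 CPM in IDE196 at 4 h, then 238, 251 and 239 CPM against 47.4, 41.4 and 40.6 CPM at 24 h. The treated samples were below the controls at both times, by -0.71 (SE 0.09) and -2.49 (SE 0.09). The glucose transporter SLC2A1 was growing too (-1.17 and -2.32). Of the enzymes further down the pathway, PGK1 (0.02 and -1.26), ENO1 (-0.18 and -1.37) and PKM (0.08 and -1.29) were late only, as were TPI1, GAPDH and PGAM1. LDHA, lactate dehydrogenase A, was growing (-0.33 and -1.78), although its 4 h call (adjusted p 0.0407) was lost without any 1 of 6 libraries (adjusted p up to 0.164, without IDE196 replicate 1 at 4 h). The aldolase ALDOA was higher at 24 h (0.73) with no called difference, but its mean level was only 5.44 CPM, beside 2231 CPM for GAPDH. Whether that low level reflects reads not assigned to ALDOA was not tested. ALDOC and ENO2 were not called at either time. NDRG1, a hypoxia-responsive gene, was growing in the opposite direction (1.05 and 2.63).

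The nuclear genes of the respiratory chain shifted by less but in 1 direction. Of 68 tested, 1 was lower at 4 h (NDUFS6) and 49 at 24 h (9.30% and 29.4% of all genes), none was higher, and the median went from -0.07 to -0.60. The 4 h lower count was 8 without DMSO replicate 4 at 4 h and 0 without DMSO replicate 5 at 4 h. The 13 protein-coding genes of the mitochondrial genome had medians of 0.14 and 0.52, with 7 higher at 24 h (28.7% of all genes; 4 without DMSO replicate 6 at 24 h), none lower and no difference called (3 above 0 without DMSO replicate 4 at 4 h), beside the share of mitochondrial reads of 6.66% to 7.74% with IDE196 and 3.79% to 5.28% with DMSO at 24 h. For NDUFB6 of complex I the levels were 34.9, 47.2 and 41.9 CPM in DMSO and 38.3, 40.5 and 44.9 CPM in IDE196 at 4 h, and 46.3, 42.3 and 43.9 CPM against 22.6, 21.3 and 18.4 CPM at 24 h. The groups overlapped at 4 h and were apart at 24 h, with a difference of -1.08 (SE 0.16, adjusted p 7.93e-05).

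Chaperones and genes of the unfolded protein response were lower at 24 h. Of 30 tested, 7 were lower at 4 h and 23 at 24 h, with 2 higher at 24 h (DNAJB9 and ERN1) and 19 differences below 0. Of all genes, 9.30% were lower at 4 h and 29.4% at 24 h, and 17.2% had a difference below 0. CALR, the endoplasmic reticulum chaperone calreticulin, was at 1436, 1632 and 1605 CPM in DMSO and 1386, 1678 and 1608 CPM in IDE196 at 4 h, and at 1751, 1449 and 1464 CPM against 522, 516 and 520 CPM at 24 h. Its 4 h groups overlapped (-0.00, adjusted p 0.998) and its difference was -1.58 (SE 0.14, adjusted p 3.44e-07). HSP90B1 (-0.03 and -1.32) and the cytosolic HSP90AA1 (0.01 and -1.30) were late only as well. HSPA5, BiP, was at 513, 636 and 686 CPM in DMSO and 382, 528 and 581 CPM in IDE196 at 4 h, and at 866, 713 and 728 CPM against 283, 263 and 266 CPM at 24 h.

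FOXO factors are held in check by AKT and induce growth arrest genes. Of 22 FOXO factors and targets tested, 11 were higher and 2 lower (CITED2 and BCL2L11) at 4 h, and 16 were higher and 2 lower (KLF15 and BCL2L11) at 24 h. The shares over all genes were 6.89% and 9.30% at 4 h and 28.7% and 29.4% at 24 h. The 4 h lower count was 1 without DMSO replicate 6 at 4 h, and the 24 h lower count was 0 without DMSO replicate 6 at 24 h. The median went from 0.51 to 0.90, and the difference was above 0 for 10 and below 0 for 2 (FBXO32 and KLF15), against 13.5% and 17.2% of all genes. PIK3IP1, an inhibitor of PI3 kinase, was at 1.37, 2.04 and 1.96 CPM in DMSO and 6.54, 6.18 and 9.21 CPM in IDE196 at 4 h, and at 1.93, 1.42 and 2.42 CPM against 27.0, 27.8 and 26.0 CPM at 24 h. Treated samples were above controls at both times, by 2.02 (SE 0.21, adjusted p 2.51e-06) and 3.80 (SE 0.20, adjusted p 7.70e-11), a difference of 1.77 (SE 0.29, adjusted p 0.000179). The factors FOXO1 (0.74 and 2.27) and FOXO3 (1.06 and 1.66) grew, and so did SESN3 (1.59 and 2.80). TXNIP, the thioredoxin-interacting protein, was steady: 4.93, 6.91 and 4.44 CPM in DMSO and 20.2, 15.5 and 14.9 CPM in IDE196 at 4 h, then 4.09, 7.61 and 5.40 CPM against 28.8, 23.8 and 19.3 CPM at 24 h. All its treated samples were above all controls (1.63 and 2.08, difference 0.45, adjusted p 0.287).

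Of 15 BCL2 family genes, 4 were higher (BCL2L1, BMF, BBC3 and HRK) and 2 lower (BCL2L2 and BCL2L11) at 4 h, against 6.89% and 9.30% of all genes, with 5 higher (BOK, BIK, BMF, BBC3 and HRK) and 6 lower at 24 h, against 28.7% and 29.4%. The 4 h lower count was 1 without IDE196 replicate 2 and 3 without IDE196 replicate 1 at 4 h. The BH3-only gene BMF was at 58.3, 63.0 and 62.5 CPM in DMSO and 129, 129 and 137 CPM in IDE196 at 4 h, and at 40.6, 58.2 and 64.8 CPM against 196, 244 and 244 CPM at 24 h. It was higher in every treated sample, by 1.10 (SE 0.13) and 2.06 (SE 0.13), a difference of 0.96 (SE 0.18, adjusted p 0.000716). BBC3, PUMA, was higher at both times by 1.45. BID (-0.17 and -1.22) and PMAIP1, NOXA (-0.27 and -1.27), were late only and lower. BCL2L11, BIM, whose protein ERK marks for degradation, was lower at 4 h by a log2 fold change of -1.11 (SE 0.17, adjusted p 0.000162). Its 24 h value of -0.45 (adjusted p 0.0246) was lost without any 1 of 4 libraries (adjusted p up to 0.104, without IDE196 replicate 3 at 24 h) and its difference of 0.66 (adjusted p 0.0411) without any 1 of 7 (adjusted p up to 0.113, without IDE196 replicate 1 at 24 h). Among 25 p53 targets, 10 were higher and 2 lower (AEN and PLK3) at 4 h (6.89% and 9.30% of all genes), 4 higher without DMSO replicate 5 at 4 h. The 24 h counts were 8 higher and 6 lower (28.7% and 29.4%).

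Of 19 melanocyte lineage regulators, 4 were higher (TFAP2A, TFEB, IRF4 and EDNRB) and 5 lower (MITF, SOX4, LEF1, MC1R and TBX2) at 4 h, 2 higher and 2 lower without DMSO replicate 6 at 4 h, and 11 were higher and 1 lower (ALX1) at 24 h. Over all genes 6.89% were higher and 9.30% lower at 4 h, and 28.7% and 29.4% at 24 h. The median went from -0.01 to 0.67, and 10 differences were above 0 and none below, against 13.5% and 17.2% of all genes. SOX10, which with MITF defines the lineage, was at 527, 574 and 556 CPM in DMSO and 616, 616 and 626 CPM in IDE196 at 4 h. After 24 h it was at 769, 747 and 811 CPM in DMSO and 1293, 1234 and 1172 CPM in IDE196. Treated samples were above controls at both times, but the 4 h value of 0.16 (adjusted p 0.182) was not called. At 24 h it was 0.67 (SE 0.08, adjusted p 1.22e-06), and SOX10 was also higher in DMSO at 24 h than at 4 h (0.49, adjusted p 0.00988). EDNRB, the endothelin receptor of melanoblasts, was at 209, 183 and 202 CPM in DMSO and 333, 283 and 313 CPM in IDE196 at 4 h, and at 332, 237 and 204 CPM against 1184, 1046 and 958 CPM at 24 h. It was growing, from 0.65 (SE 0.14) to 2.04 (SE 0.14), a difference of 1.40 (SE 0.20, adjusted p 4.17e-05). IRF4, a MITF partner in pigmentation, went from 1.35 to 4.84 at a level of 7.08 to 8.85 CPM in IDE196 at 24 h, and its 4 h call was lost without DMSO replicate 6 at 4 h (adjusted p 0.0596).

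Of 29 pigment genes tested, 4 were higher (RAB27A, RAB32, HPS4 and HPS5) and none lower at 4 h (6.89% and 9.30% of all genes), 2 higher without DMSO replicate 6, and 13 were higher and 5 lower (TYR, SLC45A2, SLC24A5, BLOC1S6 and AP3B1) at 24 h (28.7% and 29.4%), 3 lower without DMSO replicate 6 at 4 h. DCT, dopachrome tautomerase, was at 2.20, 1.16 and 1.60 CPM in DMSO and 2.98, 1.00 and 1.92 CPM in IDE196 at 4 h, and at 2.99, 1.09 and 1.28 CPM against 19.1, 14.2 and 15.2 CPM at 24 h. The treated samples of 24 h were far above the rest, with a difference of 2.89 (SE 0.51, adjusted p 0.000364). OCA2 (-0.05 and 1.25) and GPNMB (0.14 and 0.96) were late only and higher. TYRP1, PMEL and MLANA, which encode melanosomal proteins, were not called at either time, with 24 h values of 0.13, -0.05 and 0.18, and SLC45A2 was lower at 24 h (-0.62). The marker lists of other cell types did not all stay level: 6 epithelial markers summed to 38.5 to 66.4 CPM elsewhere and 166 to 179 CPM in IDE196 at 24 h. ESRP1, an epithelial splicing factor, made up 142 to 166 CPM of that sum and went from 0.52 to 2.04. The 3 Schwann cell markers summed to 107 to 130 CPM in DMSO, 150 to 169 CPM in IDE196 at 4 h and 201 to 221 CPM in IDE196 at 24 h, and the 3 markers of retinal pigment epithelium to 2.24 to 4.80 CPM over all samples. The part of other cell types in these levels was not tested.

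For the 3 pathways that follow, the shares over all genes were 6.89% higher and 9.30% lower at 4 h, and 28.7% higher and 29.4% lower at 24 h. Of 34 BMP and TGF-beta genes, 10 were higher and 4 lower (BMP2, BAMBI, TGFBI and ATOH8) at 4 h, with 16 higher and 5 lower (BMP2, ID1, BAMBI, TGFB3 and TGFBR1) at 24 h. Leaving out IDE196 replicate 1 at 4 h left 1 lower at 4 h. The receptor BMPR2 (0.22 and 1.60) and SMAD3 (0.14 and 1.39) were late only, while SMAD6 (0.74 and 0.89) and ID2 (0.97 and 1.40) were steady. Of 32 WNT pathway genes, 6 were higher and 9 lower at 4 h, and 16 were higher and 7 lower at 24 h, with CTNNB1, beta-catenin, growing and lower (-0.63 and -1.47) and WNT4 growing and higher (0.94 and 2.36). Of 26 YAP and TEAD genes, 7 were higher and 1 lower (FJX1) at 4 h, and 14 were higher and 2 lower (FJX1 and MYOF) at 24 h. CCN1 was steady (1.20 and 1.18), CCN2 growing (1.44 and 2.53) and TEAD1 late only (0.02 and 1.03).

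**Figure D3:**
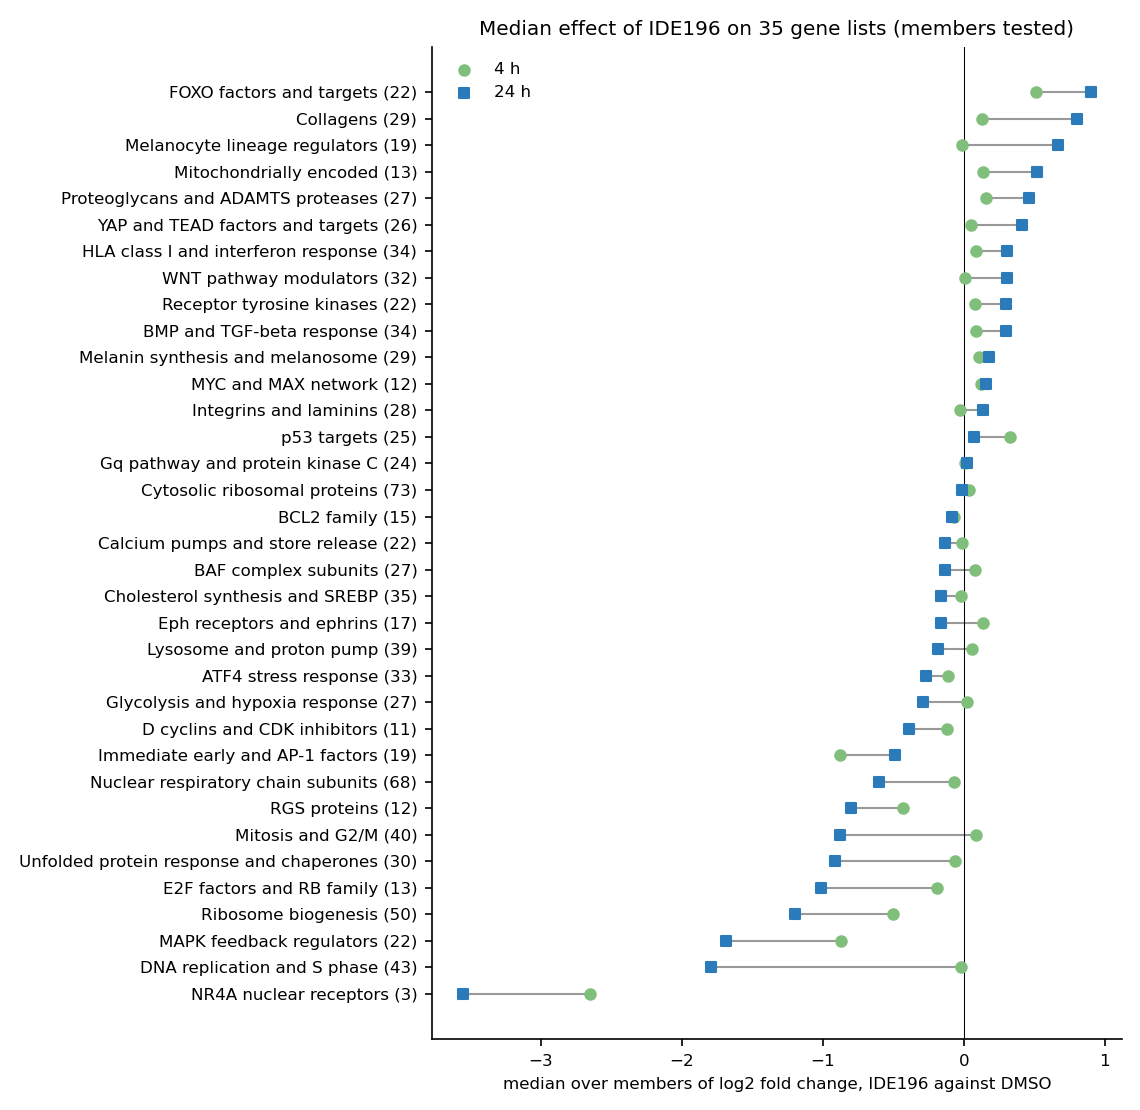
Median log2 fold change of IDE196 over DMSO in each of 35 gene lists at 4 h and at 24 h, with a line at 0 (the medians over all genes were 0.01 and 0.03). MAPK feedback and ribosome biogenesis are below 0 at both times, DNA replication moves from -0.02 to -1.79, and the FOXO list is above 0 at both times.

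**Figure D4:**
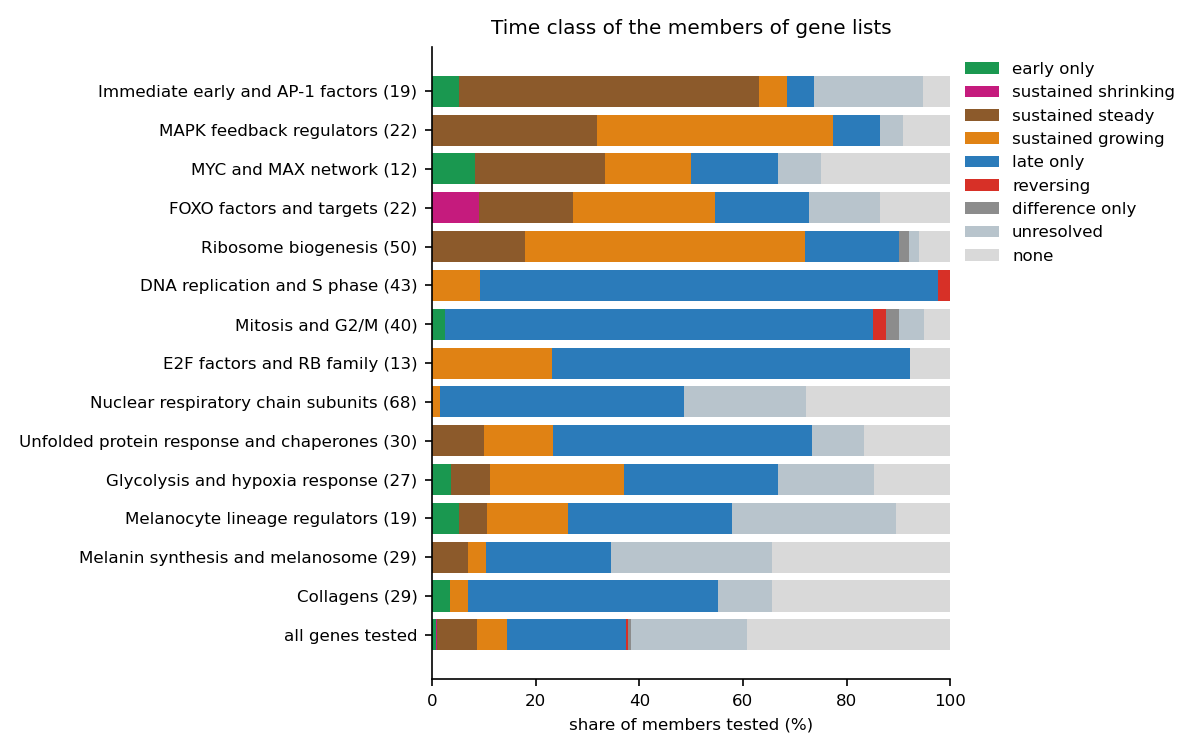
Share of the tested members of 14 lists, and of all genes tested, in each time class, as stacked bars in percent. DNA replication (38 of 43) and mitosis (33 of 40) are mostly late only, MAPK feedback and ribosome biogenesis mostly sustained, against 23.1% late only and 13.6% sustained over all genes.

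The same time comparison in 92-1 cells given FHT-1015, which has its own DMSO samples, was used to see which time differences were shared with a drug of another target. Over 16917 genes, the time difference of IDE196 minus that of FHT-1015 was called for 3219 (19.0%), 1628 above 0 (9.62%) and 1591 below 0 (9.40%). The experiments also differ in their DMSO samples, and depth was 11991337 to 24005016 reads in genes in the FHT-1015 experiment. The replication list was lower at 24 h with both drugs, with 43 of 43 differences below 0 with IDE196 and 42 with FHT-1015. Of all 16917 genes, 2838 had a called difference below 0 with IDE196 and 3806 with FHT-1015. The median time difference of the replication list was -1.68 with IDE196 and -1.90 with FHT-1015. Its contrast was called for 5 of 43 genes, against 19.0% of all genes. MCM10 had -2.84 and -2.77 (contrast -0.07, adjusted p 0.919). The mitosis list had -1.05 and -0.65, with 2 of 41 contrasts called.

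Other lists parted. MAPK feedback genes had a median time difference of -0.66 with IDE196 and 0.29 with FHT-1015. Of their 22 contrasts, 14 were below 0 and 4 above (9.40% and 9.62% of all genes). ETV4 had -3.60 and 0.07, and NRCAM -4.63 and 0.69. Pigment genes had 0.09 and -1.20, with 18 contrasts above 0 and none below (9.62% and 9.40% of all genes). Ribosome biogenesis genes had -0.61 and -1.18, with 20 above and 1 below. With FHT-1015 their median log2 fold change was 0.23 at 4 h and -0.84 at 24 h. This list was thus lower at 24 h with both drugs, and its 24 h median was further below 0 with IDE196. The early only gene PPARGC1A had -1.67 and 0.79, and the reversing gene NRP2 had 1.85 and -3.15. The single genes given here were chosen for their IDE196 values, so these pairs are a description.

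**Figure D5:**
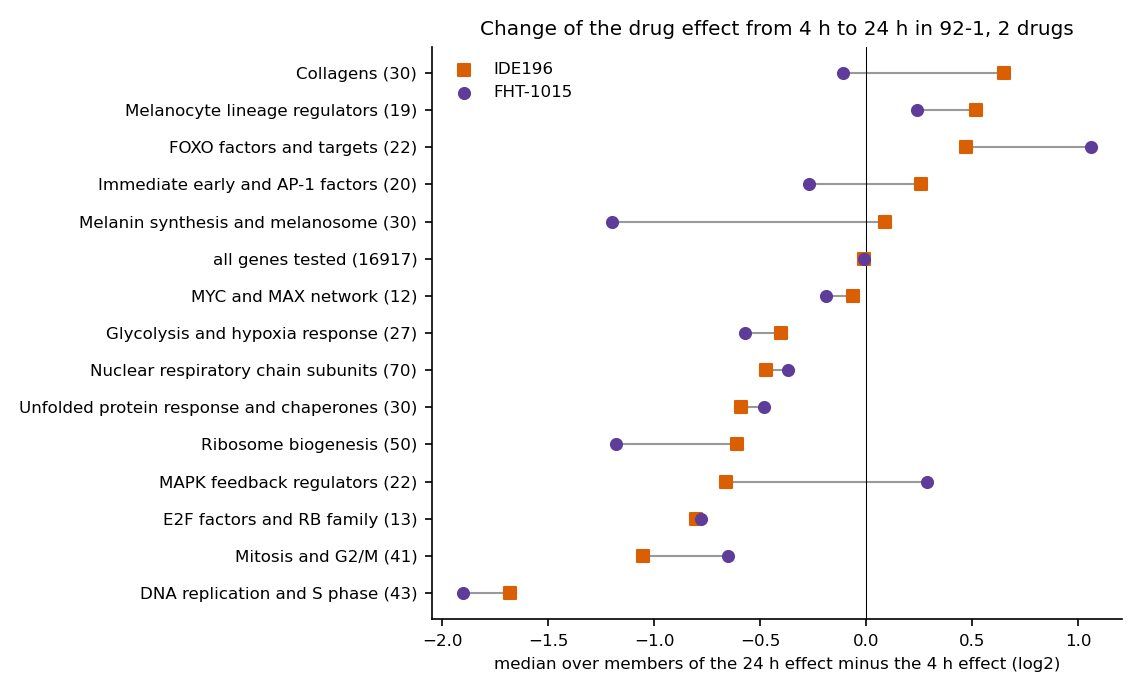
Median time difference (24 h effect minus 4 h effect, log2) of 14 gene lists and of all genes tested with IDE196 and with FHT-1015 in 92-1 cells, each against its own DMSO. DNA replication lies at -1.68 and -1.90, whereas MAPK feedback (-0.66 and 0.29) and pigment genes (0.09 and -1.20) fall on opposite sides of 0.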

How the data were processed

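Poly-A RNA sequencing libraries, made per the labels' protocols from total RNA with a kit that does not mark strand, were analysed for 12 of the 48 samples. The authors deposited unnormalized gene counts, and the unstranded counts were used. The submitters' processing notes name the build hg38 and limma; the aligner and annotation are not given in the sources used here. Of 58870 genes, 58597 were found in GENCODE 29, which gave symbols and coordinates. The 92 spike-in features had no reads and were left out.

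Counts were tested with edgeR 4.0.16 in R 4.3.3: TMM scaling, filterByExpr, a term for each of the 4 groups, the quasi-likelihood test and Benjamini-Hochberg adjustment over all genes tested, with a threshold of 0.05. Every adjusted p-value is from it. The SE of a log2 value was obtained by dividing it by the root of its F statistic. CPM are counts scaled with the TMM library sizes. The alternatives used other scaling, no filter, DESeq2 1.42.0, limma 3.58.1 (voom), the stranded counts summed, a replicate block, and each library left out. The test of the difference was also run on simulated data in which a small part of the genes was changed, in IDE196 at 24 h alone. The time classes, the 4 h effect and the contrast with FHT-1015 were not checked in this way.

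Genes named by rule were, among protein-coding genes with a mean of at least 5 CPM, 3 for each class and direction by the largest difference (for steady genes, by the smaller of the 2 effects) and, with no minimum CPM, up to 4 with a called difference in each of 35 lists. Other genes were named after their values were seen. The members and lists were chosen with earlier results of these data known. Some genes given by the rule are not reported here. Promoters are RefSeq's.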

Additional observations from a re-analysis of the deposited data

Results flagged for a closer look

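The IDE196 effect at 24 h differed from that at 4 h, by a test of the difference itself, for 4733 genes, and the time difference of IDE196 differed from that of FHT-1015 for 3219 genes. Among genes whose direction changed between the time points and that the naming rule gave, the tested difference on the log2 scale was 1.86 for NRP2, 1.64 for NEDD9 and 1.58 for GDF7, which went from lower to higher. It was -1.92 for TONSL, -1.76 for SLC2A4 and -1.76 for PKIA, which went from higher to lower. For these 6 genes the difference was called without any 1 library, while the 4 h calls of NEDD9 and TONSL were each lost without some libraries.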

How the results depend on the processing

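Under other scaling, no filter, DESeq2, voom, summed stranded counts and all 24 samples of 92-1, the counts of higher, lower, early only, late only, sustained and reversing genes stayed within 1.5 times the reported ones. With an adjusted p threshold of 0.01 there were 1218 higher and 1804 lower differences, 41 early only, 2494 late only, 1259 sustained and 16 reversing genes. Classed by the calls at each time alone, 337 genes were early only and 6807 late only. Leaving out each library in turn gave 1734 to 2052 higher and 2268 to 2607 lower differences, 90 to 120 early only, 3059 to 3726 late only, 1639 to 2165 sustained and 32 to 56 reversing genes, and 69 to 93 of the 124 early only genes kept that class. The contrast with FHT-1015 was called for 3215 genes with other size factors and 4158 with voom. Of the named genes' differences, that of EGR1 ranged from -0.51 to 0.61 without 1 library, and that of MED12L from -0.07 to 0.43, with -0.02 under voom; neither was called and the cause was not tested.

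Within a treatment, same-numbered samples of 4 h and 24 h did not deviate together (correlations of -0.046 to 0.095), so they were not taken as pairs across time. Whether DMSO and IDE196 samples of the same time deviated together was not tested. The calls at each time treat these samples as unpaired. A replicate block gave 1910 higher and 2482 lower differences. With 3 samples a group, the median standard error of the difference was 0.20 (log2) against 0.14 at each time.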

Other observations

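Of 34 genes of antigen presentation and the interferon response tested, 1 was higher (STAT2) and none lower at 4 h, against 6.89% and 9.30% of all genes, with 16 higher and 6 lower at 24 h, against 28.7% and 29.4%. The 4 h call of STAT2 (0.46, adjusted p 0.00990) was lost without IDE196 replicate 2 at 4 h (adjusted p 0.0528). HLA-E, a non-classical class I molecule, was at 108, 99.5 and 106 CPM in DMSO and 119, 118 and 116 CPM in IDE196 at 4 h, and at 92.6, 99.4 and 88.4 CPM against 252, 282 and 263 CPM at 24 h. Its 24 h treated samples were above all the others, with a difference of 1.34, while the interferon antagonist USP18 was lower at 24 h (-1.26). Of 17 Eph receptors and ephrins, 2 were higher (EFNA1 and EFNA3) and 2 lower (EPHA2 and EPHB3) at 4 h (1 higher without DMSO replicate 4), with 3 higher (EFNA1, EFNB1 and EFNB3) and 5 lower (EPHA2, EPHA4, EPHA7, EPHB3 and EFNA3) at 24 h. Over all genes 6.89% were higher and 9.30% lower at 4 h, and 28.7% and 29.4% at 24 h. The ligand EFNA1 was at 1.15, 2.16 and 1.91 CPM in DMSO and 11.9, 10.2 and 10.2 CPM in IDE196 at 4 h, and at 1.32, 1.51 and 2.08 CPM against 23.6, 25.6 and 25.3 CPM at 24 h. It was above control at both times and further so at 24 h (2.62 and 3.91).

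Of 39 lysosomal genes tested, 2 were lower at 4 h (ATP6V0B and ATP6V1E1) against 9.30% of all genes, 1 without DMSO replicate 5 at 4 h. At 24 h, 10 were higher and 17 lower (28.7% and 29.4% of all genes), or 6 higher without DMSO replicate 6 and 11 lower without DMSO replicate 4 at 24 h. Cathepsin F, CTSF, was late only and higher (0.20 and 1.97). Of 35 cholesterol and SREBP genes, 2 were higher (ACSS2 and LPIN1) and 4 lower (HMGCS1, IDI1, SQLE and SC5D) at 4 h (6.89% and 9.30% of all genes), with 4 higher (SREBF2, TM7SF2, ACSS2 and LPIN1) and 15 lower at 24 h (28.7% and 29.4%). The 4 h call of ACSS2 (0.33, adjusted p 0.0119) was lost without DMSO replicate 5 or IDE196 replicate 3 at 4 h (adjusted p up to 0.0560). FASN, fatty acid synthase, was late only and lower (0.01 and -0.83). Of 33 ATF4 stress genes, 2 were higher (ATF3 and DDIT4) and 10 lower at 4 h (6.89% and 9.30% of all genes), with 7 higher and 15 lower at 24 h (28.7% and 29.4%). Of 22 calcium pumps and store channels, 1 was higher (ATP2B4) and 2 lower (ATP2A3 and ATP2B1) at 4 h (6.89% and 9.30% of all genes), with 6 higher and 6 lower at 24 h (28.7% and 29.4%) and RYR2 late only and higher (-0.18 and 3.17). The 4 h call of ATP2B4 (0.46, adjusted p 0.0279) was lost without any 1 of 4 libraries (adjusted p up to 0.153). Of 27 BAF complex subunits, 2 were higher (SMARCA2 and DPF2) and 2 lower (PHF10 and BCL7A) at 4 h, with 5 higher (SMARCA2, ARID1B, SMARCC2, DPF3 and BICRAL) and 9 lower at 24 h, or 3 higher without DMSO replicate 4 at 24 h (28.7% and 29.4% of all genes were higher and lower at 24 h, 6.89% and 9.30% at 4 h). Without DMSO replicate 5 at 4 h, none was higher and 1 lower at 4 h.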
